A study of Mus musculus with 6 samples.

Results

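A set of 10 genes of the p53 and Rb cell cycle checkpoints were followed in immortalized mouse embryonic fibroblasts (MEFs). They were Trp53, Mdm2, Cdkn1a, Cdkn1b, Cdkn2a, Cdkn2b, Rb1, Ccnd1, Ccnd2 and Ccng1, taken by symbol from a table of 26231 genes, and all 10 had a value in every library. RNA sequencing gave 3 libraries of MEF WT, the control line, and 3 libraries labelled MEF Nf2 KO, called KO-labelled libraries from here on. Nf2 encodes Merlin, a tumor suppressor of the Hippo pathway. The cells came from FVB embryos of about 14 days that carried Nf2 alleles flanked by loxP sites, so the line labelled WT also has these alleles. Both lines were immortalized with a lentivirus for SV40 large T antigen, and then received a vector-control lentivirus (MEF WT) or a lentivirus that expresses Cre recombinase (MEF Nf2 KO). Both were grown in DMEM with 10% FBS and held without serum for 24 h before RNA was taken. Each label stands for 1 line, so loss of Nf2, exposure to Cre and the history of the line cannot be told apart. The labels do not say that replicates were separate cultures, so p-values measure the spread between libraries, which may be technical.

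The p53 pathway halts the cell cycle or starts cell death after stress. p53, encoded by Trp53, switches on Cdkn1a, Mdm2 and Ccng1, and Mdm2 in turn marks p53 for degradation. The Rb protein holds E2F factors in check until D cyclins, made in response to growth factors, activate Cdk4 and Cdk6. The Ink4 inhibitors of Cdkn2a and Cdkn2b block these kinases, and the Cip/Kip inhibitors of Cdkn1a and Cdkn1b act on cyclin-kinase complexes more widely. Cdkn2a also encodes p19Arf, which binds Mdm2. Fibroblasts build up Ink4 and Arf RNA as they are passaged in culture. Large T antigen binds both p53 and Rb proteins and so lets cells divide without obeying them. No protein was measured in these libraries, and large T antigen RNA was not analysed here.

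Nf2 RNA did not separate the lines. It was 14.3, 13.7 and 13.1 RPKM (reads normalized for exon length and for library size) in MEF WT replicates 1, 2 and 3, and 15.4, 12.9 and 13.9 RPKM in the KO-labelled libraries. The difference on the log2(RPKM + 1) scale was 0.03 (SE 0.10, limma, adjusted p = 0.987). Each gene has 1 value in the table, with no values for exons, so the loss of an exon could not be looked for. The directions given here therefore rest on the labels. Depth inferred from the values was 13430794 to 72919369 reads per library, and was greatest for the replicate 3 libraries, which carry the mark 2018. Fibroblast markers were high in sum, with 9 of 12 at 1 RPKM or more in every library, though Lum was under 1 RPKM throughout. The summed level of the 12 markers was 1893.2 to 2593.7 RPKM in MEF WT and 1488.6 to 1933.3 RPKM in the KO-labelled libraries. Vim, the highest of them, was 772.3 to 882.1 RPKM in MEF WT and 536.3 to 752.9 RPKM in the KO-labelled libraries, with no overlap. All 6 epithelial markers, 5 of 7 macrophage markers, 4 of 5 endothelial markers and 4 of 5 skeletal muscle markers with a value were under 1 RPKM in every library. Cd68, Kdr and Acta1, the highest macrophage, endothelial and skeletal muscle markers, were 5.08 to 8.1, 1.32 to 4.39 and 0.252 to 6.25 RPKM over the libraries. Map2, the highest of the neural and Schwann cell markers, was 2.65 to 4.59 RPKM in MEF WT and 8.08 to 10.9 RPKM in the other line, while Sox10 and Rbfox3 were under 1 RPKM throughout. The part of these markers in the results was not tested.

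Among the 10 genes, Ccnd1 gave the largest difference between the lines, and the balance of D cyclin RNAs differed with it. Ccnd1 was 62.5 ± 13.3 RPKM in MEF WT and 35.5 ± 5.82 RPKM in the KO-labelled libraries (SD, n = 3 each). Ccnd2 made up 27.1% of D cyclin RNA in MEF WT and 44.2% in the KO-labelled libraries, with no overlap between lines. The exact permutation test, two-sided, gave p = 0.1 for this share, the smallest possible with 3 libraries against 3. Trp53, Mdm2, Rb1 and Ccng1 differed between lines by at most 0.16 on the log2 scale. By limma on log2(RPKM + 1), 0 of the 10 genes passed an adjusted p of 0.05, where 1.06% of the 11067 genes tested did (117 genes, 0.479% higher and 0.578% lower in the KO-labelled libraries). At an unadjusted p under 0.05 stood 1 of the 10, Ccnd1, and 9.91% of all genes tested. With the replicate number as a block 0 of the 10 passed, where 7.53% of all genes did (2.99% higher and 4.54% lower), and 3 of the 10 and 23.2% of all genes had an unadjusted p under 0.05. Of the 10 genes, 5 lay above 0 and 5 below, with a median log2 fold change of 0.036, which with libraries left out ran from -0.046 (without MEF WT replicate 2) to 0.188 (without the KO-labelled library of replicate 2). Over all genes tested 47.9% lay above 0 and the median was -0.008.

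The genes spanned a wide range of RNA levels. RPKM is per length, so levels of different genes can be compared, but only roughly. The length appears to be that of all annotated exons of a gene, not of the transcripts that were expressed. Ccng1 was highest at a mean of 309.5 RPKM over the 6 libraries, followed by Cdkn2a at 236.5, Cdkn1a at 160.4, Mdm2 at 106.3, Trp53 at 55.8, Ccnd1 at 49.0, Cdkn2b at 37.9, Ccnd2 at 32.4, Cdkn1b at 13.8 and Rb1 at 5.05 RPKM. The checkpoint genes were thus mostly among the abundant RNAs of these cells. Ccng1 ranked 107 of the 11067 genes tested, Cdkn2a 152 and Cdkn1a 242, while Rb1 ranked 6998. Neighbours in this order had separate ranges over the 6 libraries for only 4 pairs: Cdkn1a above Mdm2, Mdm2 above Trp53, Ccnd2 above Cdkn1b, and Cdkn1b above Rb1. The ranges of the other neighbours overlapped, and Trp53 was above Ccnd1 in 4 of 6 libraries, Ccnd1 above Cdkn2b in 4 of 6. Reads behind these values, worked out from depth and exon length, ran from 394 for Rb1 in MEF WT replicate 1 to 79794 for Ccng1.

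**Figure D1:**
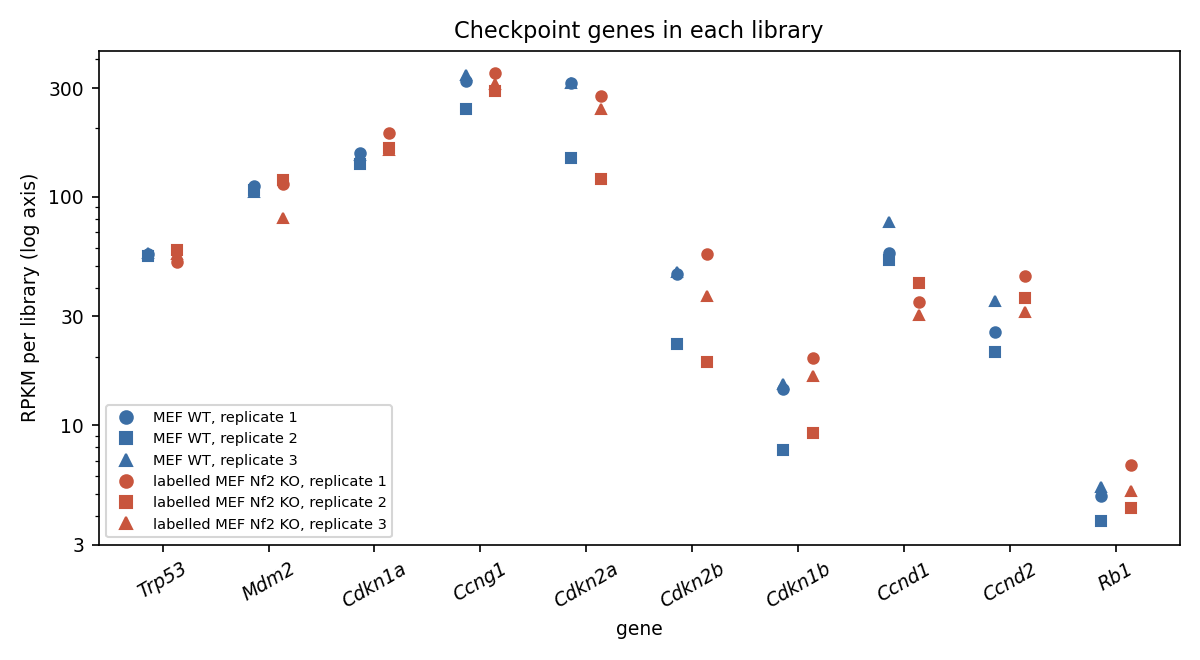
RPKM of the 10 checkpoint genes on a log axis, with a point for each library, blue for MEF WT and red for the KO-labelled libraries, and the shape giving the replicate number. Ccnd1 and Cdkn1a are the genes whose colors do not overlap, and the squares of replicate 2 are lowest in both lines for Cdkn2a, Cdkn2b, Cdkn1b, Rb1 and Ccng1.

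Trp53 lies on chromosome 11 of GRCm38 from 69580359 to 69591873, plus strand. Its RNA was 56.1, 55.2 and 56.6 RPKM in MEF WT replicates 1, 2 and 3, and 52.0, 58.6 and 56.3 RPKM in the KO-labelled libraries. The lines overlapped and the means, 56.0 ± 0.667 and 55.6 ± 3.32 RPKM (SD, n = 3 each), were nearly equal. On the log2 scale the difference was -0.01 (95% interval -0.22 to 0.20, limma, adjusted p = 0.996), the narrowest interval among the 10 genes. Of the 31-base stretches of its transcripts, 10.13% occur in other genes, mostly in the pseudogene Trp53-ps, so a small part of its reads cannot be assigned with certainty.

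Mdm2, the ubiquitin ligase that limits p53 and is itself a p53 target, lies on chromosome 10 from 117688875 to 117710758, minus strand. It was 111.9, 107.5 and 105.1 RPKM in MEF WT, and 113.8, 118.9 and 80.7 RPKM in the KO-labelled libraries. Replicate 3 of the latter was the lowest of the 6 libraries and the others lay close together. The lines differed by -0.07 on the log2 scale (SE 0.16, limma, adjusted p = 0.981), less than the spread between replicates. The ratio of Mdm2 to Trp53 was 2.0, 1.95 and 1.86 in MEF WT, and 2.19, 2.03 and 1.43 in the KO-labelled libraries (exact permutation test, two-sided, p = 1.0). No p under 0.1 is possible with 3 libraries against 3.

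Ccng1 encodes cyclin G1, a p53 target that acts with a phosphatase on Mdm2, and lies on chromosome 11 from 40748552 to 40755311, minus strand. Its RNA was 321.1, 242.9 and 341.8 RPKM in MEF WT, and 348.6, 291.3 and 311.6 RPKM in the KO-labelled libraries. Replicate 2 was the lowest in either line, and the lines overlapped. Its log2 fold change was 0.08 (95% interval -0.29 to 0.45, limma, adjusted p = 0.979).

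Promoter sequence from RefSeq (GRCm38.p6) was at hand for 7 of the 10 genes and missing for Rb1, Ccnd1 and Ccnd2. In the 250 bases before and 50 bases after each start, 4 of the 7 held the p53 response element decamer, the 10-base unit that p53 binds as a pair: Trp53, Mdm2, Cdkn1a and Ccng1. The motif reads the same on both strands and was found in 8.36% of 32851 promoters of this length. Windows of 60 bases are shown because these are the genes known to answer to p53 and p53 itself, on the strand of the gene, 5′ to 3′, with the motif in capitals. Cdkn1a has 2 starts in these tables, and both of its matches lie before the first while the second has none. No match overlaps another.
Trp53, chr11:69580259-69580318, plus strand, 75 bases before the start: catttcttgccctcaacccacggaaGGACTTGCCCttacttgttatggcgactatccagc
Mdm2, chr10:117710910-117710969, minus strand, 186 bases before the start: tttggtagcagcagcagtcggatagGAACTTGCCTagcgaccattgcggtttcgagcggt
Cdkn1a, chr17:29090881-29090940, plus strand, 73 bases before the start: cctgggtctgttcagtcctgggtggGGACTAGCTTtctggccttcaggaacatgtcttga
Cdkn1a, chr17:29090903-29090962, plus strand, 51 bases before the start: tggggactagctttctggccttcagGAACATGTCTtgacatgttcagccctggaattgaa
Ccng1, chr11:40755437-40755496, minus strand, 185 bases before the start: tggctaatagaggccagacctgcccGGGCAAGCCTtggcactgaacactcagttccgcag
A match describes these letters only and was not tested for binding.

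Other genes switched on by p53 were taken from a list of 34, of which 32 were tested and Sfn and Casp1 were under the filter on low values. None passed by limma over all genes (0 of 32, with 5 at an unadjusted p under 0.05, beside 1.06% and 9.91% of all genes). Of the 32, 23 lay above 0 and 9 below and the median log2 fold change was 0.055. With libraries left out the median ran from -0.002 with 16 above 0 (without replicate 2 of both lines) to 0.174 with 25 above 0 (without MEF WT replicate 1). Fas, the death receptor, was 23.7, 18.3 and 27.0 RPKM in MEF WT, and 47.3, 41.5 and 37.4 RPKM in the KO-labelled libraries. It was higher in each of the latter than in any MEF WT library. Its log2 fold change was 0.85 (SE 0.16, limma, adjusted p = 0.0839), and with the replicate block it was the 1 target of 32 to pass (limma, adjusted p = 0.0276), beside 7.53% of all genes. The other targets whose lines did not overlap, Perp, Apaf1, Tigar and Xpc, named here after their values were seen, were all higher in the KO-labelled libraries, by 0.48, 0.34, 0.37 and 0.18 on the log2 scale, and passed neither fit. With Fas, 5 of the 32 were higher without overlap and 0 lower, beside 7.6% and 7.52% of all genes. The 3 most abundant targets of the list had similar means in both lines: Phlda3, an inhibitor of Akt, with means of 97.2 and 99.6 RPKM, Ak1, adenylate kinase, with 87.3 and 89.0 RPKM, and Bax, the pore-forming apoptosis factor, with 84.4 and 84.2 RPKM.

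Regulators of p53 formed a list of 20 genes, with 18 tested and the paralogs Trp63 and Trp73 under the filter. By limma 0 of 18 passed, 0 had an unadjusted p under 0.05, and 0 passed with the replicate block, beside 1.06%, 9.91% and 7.53% of all genes. The list had 6 genes above 0 and 12 below, with a median of -0.039, where 47.9% of all genes lay above 0. Without MEF WT replicate 1, 11 of the 18 lay above 0 and the median was 0.025, and without the KO-labelled library of replicate 3, 10 lay above 0 and the median was 0.008. Mdm4, the partner of Mdm2, was 5.93, 4.19 and 4.96 RPKM in MEF WT, and 5.03, 3.86 and 3.60 RPKM in the KO-labelled libraries, and the lines overlapped. Its log2 fold change was -0.22 (SE 0.15, limma, adjusted p = 0.81), -0.118 without MEF WT replicate 1 and -0.34 without the KO-labelled library of replicate 1. The ribosomal proteins Rpl11 and Rpl5, which can bind Mdm2, had means of 203.6 and 182.5 RPKM in MEF WT and 194.6 and 167.8 RPKM in the other line. Usp7, the deubiquitinase of Mdm2 and p53, had means of 23.0 and 22.7 RPKM, and Wrap53, the neighbour of Trp53 on the opposite strand, of 9.72 and 10.2 RPKM.

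Cdkn1a encodes p21 and lies on chromosome 17 from 29090976 to 29100727, plus strand. It was 155.1, 139.4 and 152.1 RPKM in MEF WT, and 191.1, 164.4 and 160.4 RPKM in the KO-labelled libraries. The lowest of the latter was above the highest MEF WT library, which made Cdkn1a and Ccnd1 the 2 of 10 genes whose lines did not overlap, 1 higher and 1 lower, beside 15.1% of all genes tested (7.6% higher and 7.52% lower). The means were 148.9 ± 8.34 and 172.0 ± 16.7 RPKM (SD, n = 3 each), which gives a log2 fold change of 0.20 (SE 0.11, 95% interval -0.05 to 0.46, limma, adjusted p = 0.674). Without the KO-labelled library of replicate 1 it was 0.126. Bulk RNA cannot tell more RNA per cell from more cells that express the gene. An annotated transcript on the opposite strand, AC167363.2, shares 7.7% of its exon bases, and the strand setting of the libraries is not given in the sources used here.

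Cdkn1b encodes p27, which builds up in cells that leave the cycle, and lies on chromosome 6 from 134920401 to 134925513, plus strand. It was 14.4, 7.80 and 15.1 RPKM in MEF WT, and 19.7, 9.26 and 16.5 RPKM in the KO-labelled libraries. Replicate 2 was the lowest in both lines, by 0.84 and 0.89 on the log2 scale against the mean of replicates 1 and 3, while within each replicate number the KO-labelled library was the higher. The log2 fold change between lines was 0.26, with an SE of 0.33 without the block and 0.08 with it (limma, adjusted p = 0.948 and 0.124). The third gene of this family, Cdkn1c (p57), named after its values were seen, was 35, 11.4 and 39.3 RPKM in MEF WT, and 30.4, 8.98 and 32.8 RPKM in the KO-labelled libraries. It too was lowest in replicate 2 of each line. Summed over Cdkn1a, Cdkn1b and Cdkn1c, the Cip/Kip level was 189.9 ± 27.1 RPKM in MEF WT and 211.2 ± 29.3 RPKM in the KO-labelled libraries (SD, n = 3 each, exact permutation test, two-sided, p = 0.4). The KO-labelled library was the higher within each replicate number, and the exact permutation p with the replicate block was 0.25, the smallest possible with 3 pairs. Cdkn1a held most of this sum, at 10.7, 17.9 and 10.1 times Cdkn1b in MEF WT and 9.71, 17.8 and 9.72 times in the other line.

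The Ink4 locus on chromosome 4 holds Cdkn2a, from 89274471 to 89294653, and Cdkn2b, from 89306299 to 89311039, both on the minus strand. Cdkn2a yields p16Ink4a and p19Arf from separate starts, and the table holds a single value for both. It was 315.1, 147.8 and 314.0 RPKM in MEF WT, and 277.7, 120.4 and 243.8 RPKM in the KO-labelled libraries. Replicate 2 stood lowest in both lines, by 1.08 and 1.11 on the log2 scale, and within each replicate number the KO-labelled library was the lower. The log2 fold change between lines was -0.28, with an SE of 0.41 without the block and 0.08 with it (limma, adjusted p = 0.956 and 0.115). The difference between replicate numbers was thus larger than that between lines. Without the KO-labelled library of replicate 2 the log2 fold change was 0.09.

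Cdkn2b encodes p15Ink4b, an inhibitor induced by TGF-beta. It was 45.9, 22.7 and 47.0 RPKM in MEF WT, and 56.0, 18.9 and 37.0 RPKM in the KO-labelled libraries. Replicate 2 was again the lowest in each line, by 1.00 and 1.23 on the log2 scale, and the lines overlapped. The log2 fold change between lines was -0.10 (95% interval -1.15 to 0.94, limma, adjusted p = 0.993). Cdkn2a exceeded Cdkn2b by 6.87, 6.52 and 6.68 times in MEF WT and by 4.96, 6.37 and 6.59 times in the KO-labelled libraries (exact permutation test, two-sided, p = 0.2). The ratio stayed near the same value in replicate 2, where both genes were low. The summed Ink4 level, with Cdkn2c and Cdkn2d added, was 401.6, 196.3 and 395.0 RPKM in MEF WT, and 378.0, 167.3 and 320.5 RPKM in the KO-labelled libraries (exact permutation test, two-sided, p = 0.5). Within each replicate number the KO-labelled library was the lower, and with the replicate block the exact permutation p was 0.25, the smallest that 3 pairs allow. Mtap, the metabolic gene next to the locus, was not low in replicate 2 and lay between 63.4 and 72.9 RPKM in all 6 libraries, lower in the KO-labelled libraries without overlap (log2 fold change -0.10, SE 0.08, limma, adjusted p = 0.89).

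The 250 bases before the RefSeq starts of the Ink4 locus are shown because both genes were low in the same libraries. They are given 5′ to 3′ on the minus strand, with capitals for the E2F motif TTTNNCGC, the GC box GGGCGG and the cyclic AMP response element TGACGTCA, searched on both strands. None of the marked matches overlaps another.
Cdkn2a, upstream start, chr4:89294620-89294869: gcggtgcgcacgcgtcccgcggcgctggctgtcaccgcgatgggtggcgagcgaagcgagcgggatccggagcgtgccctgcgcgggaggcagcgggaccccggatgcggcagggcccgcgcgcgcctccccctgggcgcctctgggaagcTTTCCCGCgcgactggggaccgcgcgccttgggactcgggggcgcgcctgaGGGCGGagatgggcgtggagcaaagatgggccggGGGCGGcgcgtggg
Cdkn2a, downstream start, chr4:89282193-89282442: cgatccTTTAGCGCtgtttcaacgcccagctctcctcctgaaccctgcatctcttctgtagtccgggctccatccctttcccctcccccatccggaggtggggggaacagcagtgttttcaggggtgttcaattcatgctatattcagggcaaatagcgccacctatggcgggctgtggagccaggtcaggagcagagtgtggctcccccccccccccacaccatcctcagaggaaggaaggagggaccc
Cdkn2b, chr4:89311033-89311282: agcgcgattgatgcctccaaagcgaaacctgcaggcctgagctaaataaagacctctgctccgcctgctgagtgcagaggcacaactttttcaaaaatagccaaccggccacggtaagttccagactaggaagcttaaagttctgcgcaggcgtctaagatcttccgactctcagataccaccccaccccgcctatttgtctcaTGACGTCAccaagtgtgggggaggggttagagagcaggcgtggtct
Both Cdkn2a starts held the E2F motif, 99 and 244 bases before the start, and 5.17% of all promoters held it. The Cdkn2b window held the cyclic AMP response element 46 bases before the start, as did 1.79% of all promoters, and the GC box was present in 35.66% of them.

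Genes known to repress or induce the Ink4 locus, with the neighbour Mtap, formed a list of 26, with 25 tested and Tbx2 under the filter. By limma 0 of 25 passed and 4 had an unadjusted p under 0.05, beside 1.06% and 9.91% of all genes. Of the 25, 15 lay above 0 and 10 below with a median of 0.027, where 47.9% of all genes lay above 0. The median was 0.001 without MEF WT replicate 2 and 0.048 without the KO-labelled library of replicate 2. The lines did not overlap for 5 of them, 2 higher and 3 lower in the KO-labelled libraries, beside 7.6% and 7.52% of all genes. Ets1, a factor that can switch on Cdkn2a, was 14.9, 19.1 and 15.3 RPKM in MEF WT, and 19.4, 30.6 and 28.9 RPKM in the KO-labelled libraries. Every library of the latter was above every MEF WT library. The log2 fold change was 0.63 (SE 0.19, limma, adjusted p = 0.271), and with the replicate block, under which 7.53% of all genes passed, Ets1 passed (limma, adjusted p = 0.0296). Id1, an antagonist of Ets factors, was 20.9, 81.3 and 25.3 RPKM in MEF WT, and 43.2, 55.2 and 29.7 RPKM in the KO-labelled libraries, highest in replicate 2 of each line. Smad4, the common partner of TGF-beta signals, had means of 25.5 and 25.9 RPKM.

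Replicate 2 was the lowest library in both lines for 5 of the 10 genes, Cdkn1b, Cdkn2a, Cdkn2b, Rb1 and Ccng1, as it was for 39.5% of all genes tested. Among all 7 CDK inhibitor genes it was the lowest in both lines for 6, the exception being Cdkn1a. The samples of replicate 2 carry the mark B in the labels of both lines, and what that mark stands for is not given.

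**Figure D2:**
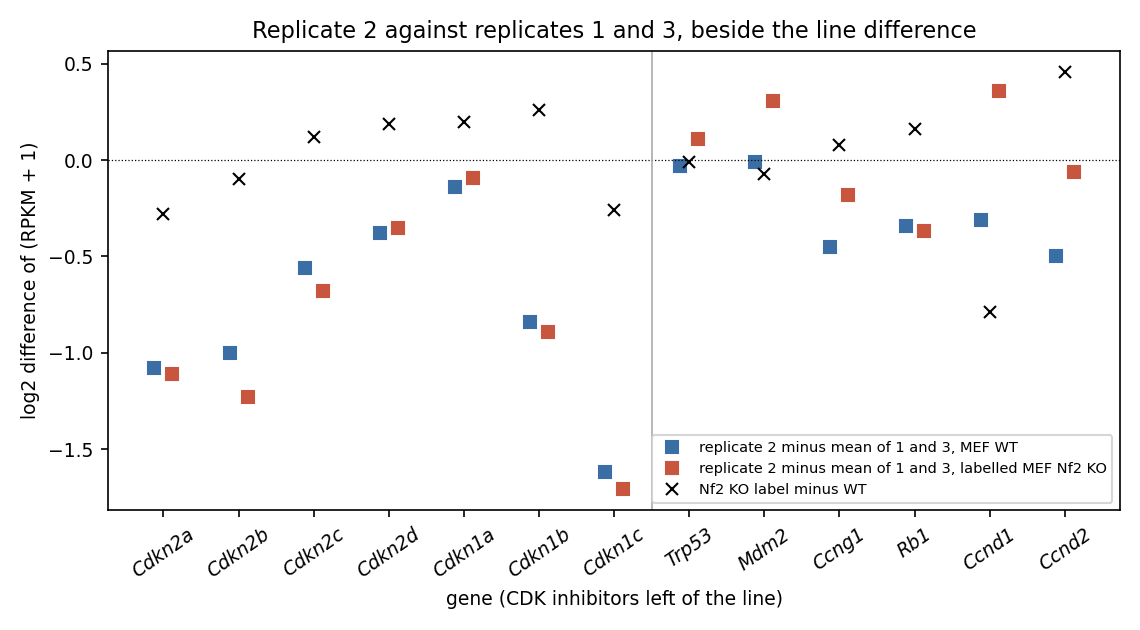
Log2 difference of (RPKM + 1) between replicate 2 and the mean of replicates 1 and 3 in MEF WT (blue squares) and in the KO-labelled libraries (red squares), beside the difference between lines (crosses), for the 7 CDK inhibitor genes and the other checkpoint genes. For Cdkn2a, Cdkn2b and Cdkn1b both squares lie at -0.84 or lower while the crosses lie between -0.28 and 0.26, and for Ccnd1 the cross at -0.79 is farther from 0 than both squares.

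Rb1 lies on chromosome 14 from 73183673 to 73325822, minus strand. It was 4.88, 3.83 and 5.39 RPKM in MEF WT, and 6.69, 4.34 and 5.17 RPKM in the KO-labelled libraries. The lines overlapped. Its log2 fold change was 0.16 (95% interval -0.25 to 0.57, limma, adjusted p = 0.925). With libraries left out it ran from 0.019 (without the KO-labelled library of replicate 1) to 0.282 (without that of replicate 2). Its paralogs Rbl1 (p107) and Rbl2 (p130) had means of 8.79 and 3.51 RPKM in MEF WT and 8.48 and 3.31 RPKM in the KO-labelled libraries. Rbl1 was above Rb1 in every library. Exons of Rcbtb2 and Lpar6 on the opposite strand share 8.1% and 6.8% of Rb1's exon bases.

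Ccnd1, cyclin D1, lies on chromosome 7 from 144929931 to 144939925, minus strand. Its RNA was 56.6, 53.2 and 77.7 RPKM in MEF WT, and 34.6, 41.8 and 30.3 RPKM in the KO-labelled libraries. Every library of the latter was below every MEF WT library. For Ccnd1 the log2 fold change was -0.79 (SE 0.18, 95% interval -1.22 to -0.35, limma, adjusted p = 0.15), and the adjusted p with the replicate block was 0.0717 by limma. Over all alternatives the log2 fold change ran from -1.01 to -0.52 and the limma adjusted p from 0.0242 to 0.838. Ccnd1 passed the threshold without replicate 2 of both lines (log2 fold change -1.01, limma, adjusted p = 0.0242) and under no other setting tried, and without replicate 3 the log2 fold change was -0.52. The gene LTO1 on the opposite strand shares 23.4% of its exon bases and was at 1.88 to 2.22 RPKM in all libraries.

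Ccnd2, cyclin D2, lies on chromosome 6 from 127125162 to 127152193, minus strand. It was 25.7, 21.0 and 35.2 RPKM in MEF WT, and 45.0, 36.0 and 31.4 RPKM in the KO-labelled libraries. The latter were higher in replicates 1 and 2 and lower in replicate 3, so the lines overlapped. The means were 27.3 ± 7.20 and 37.5 ± 6.95 RPKM (SD, n = 3 each), which gives a log2 fold change of 0.46 (SE 0.21, 95% interval -0.05 to 0.97, limma, adjusted p = 0.577). Without MEF WT replicate 2 it was 0.294, and without replicate 3 of both lines 0.768. Ccnd3, cyclin D3, was 10.0, 10.6 and 10.2 RPKM in MEF WT, and 11.2, 11.5 and 11.9 RPKM in the KO-labelled libraries, with no overlap. Its log2 fold change was 0.15 (SE 0.08, limma, adjusted p = 0.655).

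Because RPKM is per length, the D cyclin RNAs can be added. The lengths appear to be of all annotated exons, 4709 bases for Ccnd1 and 9409 for Ccnd2. Shares and ratios within a library depend on these lengths. The D cyclin sum was 92.2, 84.8 and 123.0 RPKM in MEF WT, and 90.8, 89.3 and 73.6 RPKM in the KO-labelled libraries. The sums overlapped, and the log2 ratio of the means was -0.242 (exact permutation test, two-sided, p = 0.4). Without replicate 3 of both lines the log2 ratio was 0.0245. The shares of Ccnd1 and Ccnd2 in the sum did not overlap between lines. Ccnd2 held 27.8%, 24.8% and 28.6% of it in MEF WT, and 49.6%, 40.3% and 42.6% in the KO-labelled libraries. The difference was 17.1 percentage points, and 14.4 to 19.1 with libraries left out (p = 0.1 by a two-sided exact permutation test, the smallest possible). With the replicate block the exact permutation p was 0.25, the smallest that 3 pairs allow. The share of Ccnd1 was 61.3%, 62.7% and 63.1% in MEF WT, and 38.1%, 46.8% and 41.1% in the KO-labelled libraries. That of Ccnd3 overlapped, at 10.9%, 12.5% and 8.28% in MEF WT and 12.3%, 12.9% and 16.2% in the KO-labelled libraries. Ccnd1 was thus above Ccnd2 in all 3 MEF WT libraries, by 2.20, 2.53 and 2.21 times, and the ratio was 0.768, 1.16 and 0.964 in the other line (exact permutation test, two-sided, p = 0.1). These shares use the same values as the tests of Ccnd1 and Ccnd2 and are not separate evidence.

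**Figure D3:**
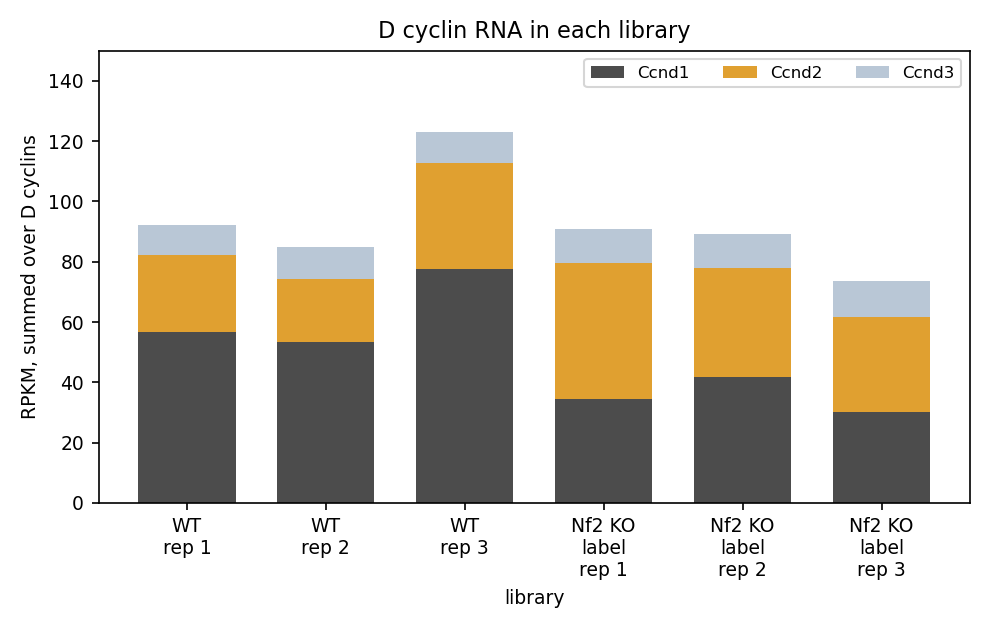
RPKM of Ccnd1, Ccnd2 and Ccnd3 stacked for each library, with MEF WT in the first 3 bars and the KO-labelled libraries in the last 3. The bars reach 84.8 to 123.0 RPKM in MEF WT and 73.6 to 90.8 RPKM in the others, and the Ccnd2 part is 24.8% to 28.6% of the former and 40.3% to 49.6% of the latter.

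**Figure D4:**
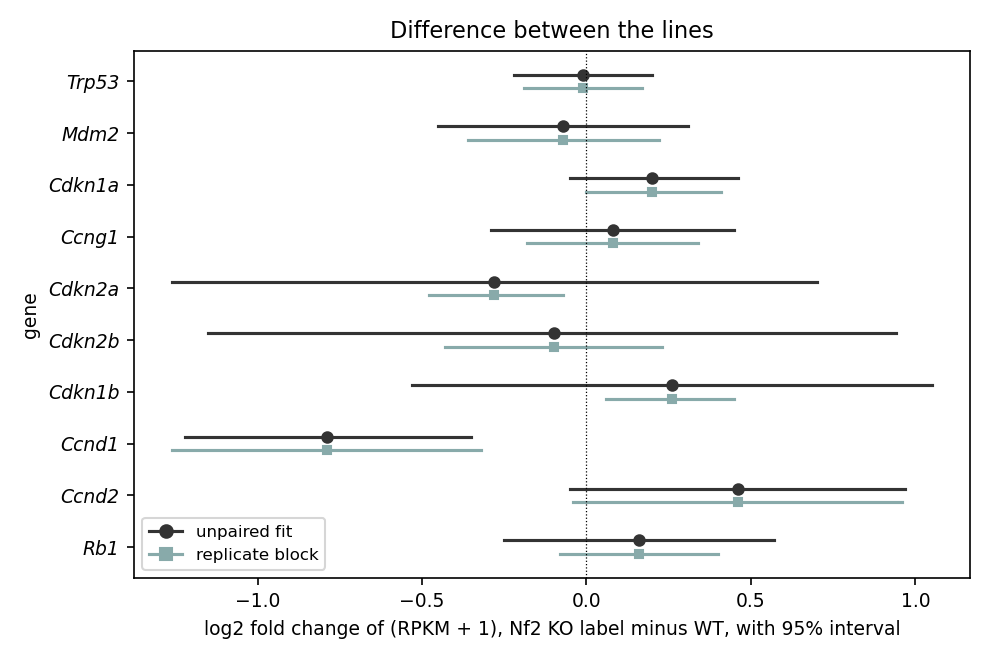
Log2 fold change of (RPKM + 1), KO-labelled libraries minus MEF WT, with 95% intervals from limma, without the replicate block (dark circles) and with it (pale squares). The interval of Ccnd1 lies below 0 in both fits, and the intervals of Cdkn2a and Cdkn1b shrink with the block to one side of 0.

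Other G1 and Rb pathway genes formed a list of 29, with 28 tested and E2f2 under the filter. By limma 0 of 28 passed, 1 had an unadjusted p under 0.05, and 0 passed with the block, beside 1.06%, 9.91% and 7.53% of all genes. The list had 20 genes above 0 and 8 below, with a median of 0.087, where 47.9% of all genes lay above 0. Cdk4, a kinase partner of the D cyclins, was 148.6, 115.6 and 141.5 RPKM in MEF WT, and 148.0, 129.3 and 154.6 RPKM in the KO-labelled libraries, and the lines overlapped. Cdk6, its paralog, lay between 1.60 and 1.81 RPKM in all libraries. Cks1b, a partner of cyclin-dependent kinases in the turnover of p27, had means of 81.6 and 87.0 RPKM, and Tfdp1, the partner of E2F factors, of 57.5 and 61.7 RPKM. Skp2, the ligase that turns over p27 and the gene of the list at an unadjusted p under 0.05, chosen after its values were seen, was 5.79 ± 0.486 and 7.11 ± 0.101 RPKM (SD, n = 3 each, limma, adjusted p = 0.369), with no overlap between lines.

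E2F-driven replication and mitosis genes, a list of 26 that were all tested, had 23 genes above 0 and 3 below, with a median log2 fold change of 0.074, where 47.9% of all genes lay above 0. Without replicate 3 of both lines 12 of the 26 lay above 0 and the median was -0.009. By limma 0 of 26 passed and 2 had an unadjusted p under 0.05, beside 1.06% and 9.91% of all genes. Rrm1, the large subunit of ribonucleotide reductase, was 23.3, 25.9 and 24.6 RPKM in MEF WT, and 28.8, 31 and 32.1 RPKM in the KO-labelled libraries. The lines did not overlap. Its log2 fold change was 0.31 (SE 0.09, limma, adjusted p = 0.256), and it was the 1 gene of the list to pass with the replicate block (limma, adjusted p = 0.0485), under which 7.53% of all genes passed. Rrm2, its partner subunit, had means of 97.5 and 125.9 RPKM with overlap between lines, Pcna, the replication clamp, of 117.6 and 124.7 RPKM with overlap, and Cdc20, the mitotic activator of the anaphase-promoting complex, of 85.2 and 100.4 RPKM without.

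**Figure D5:**
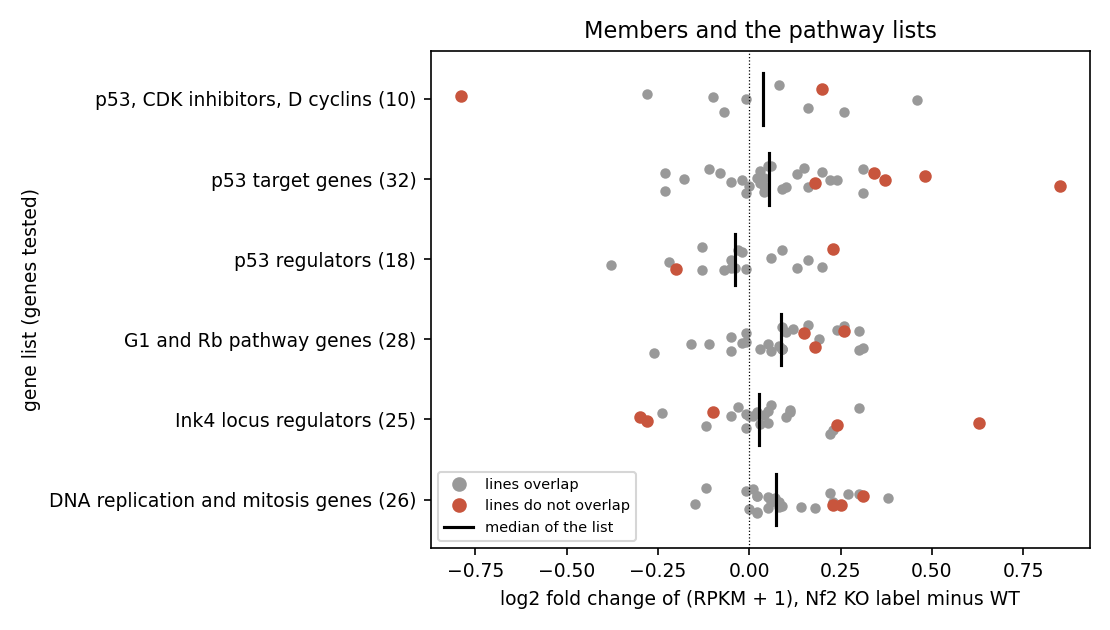
Log2 fold change of (RPKM + 1), KO-labelled libraries minus MEF WT, of each tested gene in the 10 checkpoint genes and in the 5 pathway lists, with red for genes whose lines did not overlap and a bar at each median. The medians lie between -0.039 and 0.087, Ccnd1 at -0.79 is the lowest gene plotted, and Fas at 0.85 the highest.

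The genes whose profile over the 6 libraries was most like that of Cdkn1a were Zfp69, Rab40c and E130317F20Rik. The root mean square difference of their centered log2 values from those of Cdkn1a was 0.0172, 0.0224 and 0.0228, where the profile of Cdkn1a itself had a root mean square of 0.137. For Cdkn2a, with a root mean square of 0.537, they were Hid1 at 0.0601, Armcx1 at 0.0763 and Tcea3 at 0.0812. These 3 genes were lowest in replicate 2 of each line, which follows from their choice by likeness to Cdkn2a. Cdkn2b was in place 33 by this measure, at 0.154. The profiles rest on 6 libraries and on log2(RPKM + 1), where adding 1 RPKM shrinks the differences of low genes. Zfp69, E130317F20Rik and Hid1 are such genes, at 1.1 to 1.93, 1.15 to 1.94 and 0.192 to 1.95 RPKM. With 0.1 RPKM added instead, their log2 fold changes between lines went from 0.2, 0.203 and -0.229 to 0.317, 0.318 and -0.423. Likeness with 0.1 RPKM added was not tested.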

How the data were processed

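Total RNA was extracted with the RNeasy Mini kit, and GENEWIZ made, sequenced and analysed 3 MEF WT libraries and 3 libraries labelled MEF Nf2 KO. The authors deposited 1 table with 1 value per gene and library, taken here as RPKM. The unit, the aligner and the counter are not given in the sources used here, and the submitters' processing notes name the build mm10. The unit was inferred from the values, multiplied by GENCODE exon length (26033 of 26231 genes). Of values of up to 20 reads, 83.5% to 85.4% were whole multiples of a single read within 0.05. Chance gives 10% at a depth fixed beforehand. Here the depth per library was the value near the single-read step that made this share largest, so 10% is not its chance level. The columns were matched to samples by their names, and 0 columns were left unmatched.

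The 11067 genes that reached 1 RPKM in 3 or more libraries were compared between lines on the log2(RPKM + 1) scale with limma 3.58.1 (R 4.3.3, lmFit and eBayes, both trend and robust turned on). Tests were two-sided and had no covariate, after the unpaired test of the study, and p-values were adjusted by Benjamini-Hochberg across the 11067 genes at a threshold of 0.05. Fold changes on this scale understate those of low genes. Sums, shares and ratios were compared by exact permutation tests over libraries. Same-numbered libraries deviated together from their line means across genes (correlation 0.552, 0.819 and 0.516 for replicates 1, 2 and 3), and the labels give both lines the marks A, B and 2018, so replicate numbers were treated as pairs in the fit with a replicate block. As alternatives, the fit was repeated with trend and robust turned off, after quantile normalization, after median centring, with 0.1 RPKM as pseudocount, unfiltered, with 5 RPKM as the filter, with the replicate block, with a covariate for the 2018 mark, and with each replicate number or library left out.

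The 10 genes, the gene lists and the cell type markers were chosen with earlier results of these data known. Genes were named by a rule: Nf2, the 10 genes, list genes past the threshold with or without the block, the 3 most abundant genes of each list, direct partners, paralogs and neighbours (Ccnd3, Cdk4, Cdk6, Mdm4, Rbl1, Rbl2, Mtap, Wrap53), and the 3 genes most like Cdkn1a and Cdkn2a by profile. Cell type markers (Vim, Lum, Cd68, Kdr, Acta1, Map2, Sox10, Rbfox3) were picked by their values, and Cdkn2c and Cdkn2d are parts of a sum. Other genes outside the rule are said to be chosen after their values were seen, and genes that share exon bases with a named gene, or that were under a filter, are named for that. Coordinates and exons come from GENCODE vM21 on GRCm38, the build also called mm10, and promoters from RefSeq tables of GRCm38.p6. The summed level of the neural and Schwann cell markers is not reported here. Figures were drawn with matplotlib 3.10.9.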

Additional observations from a re-analysis of the deposited data

How the results depend on the processing

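Under the alternatives 16 counts moved, by more than 1.5 times or to or from 0, and 2 values of sums changed sign. Sums and shares were checked only for their sign and for a permutation p under 0.05, which 3 libraries against 3 cannot reach. Most of the others are list counts that stayed at 0, which says nothing about stability. For single genes 641 kept their direction and their side of the threshold, 5 passed it newly and 45 changed sign. With the replicate block (pairing of same-numbered libraries) the count past the threshold was 833 for all genes instead of 117, 1 for p53 targets (Fas), 1 for Ink4 regulators (Ets1) and 1 for replication and mitosis genes (Rrm1), and it changed no other call on a list. With libraries left out the count was 0 to 1 for the 10 checkpoint genes (Ccnd1, without replicate 2), 0 to 2 for p53 targets (Fas and Gadd45a, the latter named after its values were seen, without replicate 2), and 0 to 484 for all genes. It was 0 without replicate 1 (578 genes at an unadjusted p under 0.05 by limma) or replicate 3 (556 genes), 484 without replicate 2, 11 and 10 without MEF WT replicate 1 or 3, and 10 and 18 without the KO-labelled libraries replicate 1 or 3. For all genes it was 9 with no filter, 63 with a filter of 5 RPKM and 62 with the 2018 mark as covariate. The cause of these moves was not tested. With libraries left out, the log2 ratio ran from 0.0392 to 0.248 for the Cip/Kip total, from -0.389 to 0.0245 for the D cyclin total (above 0 without replicate 3) and from -0.465 to 0.0776 for the Ink4 total (above 0 without the KO-labelled library of replicate 2). Log2 fold changes that changed sign with libraries left out ran from -0.057 to 0.038 for Trp53, -0.177 to 0.104 for Mdm2, -0.067 to 0.19 for Ccng1, -0.025 to 0.552 for Cdkn1b, -0.641 to 0.089 for Cdkn2a, -0.452 to 0.307 for Cdkn2b, -0.03 to 0.091 for Nf2, -0.032 to 0.114 for Ak1, -0.13 to 0.104 for Bax (0.021 with quantile normalization and 0.0 with median centring), -0.049 to 0.103 for Phlda3, -0.014 to 0.168 for Cdk4, -0.053 to 0.012 for Cdk6 (0.017 with quantile normalization), -0.034 to 0.196 for Cks1b, -0.163 to 0.822 for Id1, -0.255 to 0.082 for Rbl2, -0.12 to 0.021 for Rpl11, -0.075 to 0.021 for Usp7, -0.6 to 0.095 for Armcx1, -0.627 to 0.103 for Hid1 and -0.706 to 0.077 for Tcea3. Scaling moved the median of all genes by under 0.1 on the log2 scale. Among the 10 checkpoint genes depth is thinnest for Rb1, with 394 reads in MEF WT replicate 1.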

Other observations

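Outside the 10 genes, some p53 target genes also differed more between replicate numbers than between lines, and all genes of this paragraph were chosen after their values were seen. Trp53inp1, a p53-induced autophagy and apoptosis factor, was 45.4, 19.2 and 45.5 RPKM in MEF WT replicates 1, 2 and 3, and 61.5, 22.9 and 30.6 RPKM in the KO-labelled libraries. Bbc3, which encodes the apoptosis factor Puma, was 10.2, 4.15 and 9.89 RPKM in MEF WT, and 11.7, 4.0 and 8.56 RPKM in the KO-labelled libraries. Both were lowest in replicate 2 of each line, as were 9 of the 32 p53 targets tested and 39.5% of all genes. Plk2, a polo-like kinase, went the other way, with 58.1, 98.7 and 60.8 RPKM in MEF WT and 45.7, 120.4 and 53.7 RPKM in the KO-labelled libraries. Replicate 2 was highest in both lines for 8 of the 32 targets and 23.2% of all genes. The log2 fold changes of Trp53inp1, Bbc3 and Plk2 between lines were 0.04, -0.02 and -0.08 (limma, adjusted p = 0.997, 0.998 and 0.996), and each changed sign among the alternatives, over ranges of -0.36 to 0.34, -0.38 to 0.36 and -0.50 to 0.19.

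Among replication and mitosis genes, replicate 2 was highest in both lines for 9 of 26 and lowest in both for 3 of 26, Mcm2, Mcm6 and Mcm7, named after their values were seen. Among the Polycomb genes of the Ink4 list, all of this paragraph chosen after their values were seen, Rnf2 had means of 11.2 RPKM in MEF WT and 13.4 RPKM in the KO-labelled libraries with no overlap between lines (log2 fold change 0.24, SE 0.08, limma, adjusted p = 0.381). Ezh2 had means of 13.1 and 16.3 RPKM (log2 fold change 0.30, SE 0.13, limma, adjusted p = 0.543), Cbx8 of 2.26 and 1.77 RPKM (log2 fold change -0.24, SE 0.17, limma, adjusted p = 0.812) and Bmi1 of 16.9 and 17.0 RPKM, all with overlap.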
